A study of Mus musculus with 9 samples.

Results

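The genes described here are 10 antioxidant and glutathione enzymes, which detoxify peroxides and superoxide, make glutathione or open the heme ring. They were followed in G1E cells, mouse erythroid precursors kept as a line and without a working Gata1 gene of their own. They were chosen with earlier results of these data known, and were found by gene symbol. They are the peroxide enzymes Prdx2, Cat, Gpx1, Gpx4 and Mgst3 and the superoxide dismutases Sod1 and Sod2. The others are the glutathione-synthesis subunits Gclc and Gclm and the heme oxygenase Hmox1. Each of the 10 symbols matched 1 of the 27999 rows of the count table, and all 10 passed the low-count filter and were among 9978 tested genes. The study infected G1E cells with an HMD vector that carried a human GATA1 mutant, carried wildtype human GATA1 or was empty, with 3 libraries of bulk RNA in each group. All 3 groups share the loss of working endogenous Gata1 and the same medium with murine SCF and EPO. The sources used here give neither the mutation, nor the time from infection to lysis, nor any selection of infected cells.

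Red cells carry oxygen on heme iron and form superoxide and hydrogen peroxide throughout their life. Superoxide dismutases turn superoxide into hydrogen peroxide. Catalase, glutathione peroxidases and peroxiredoxins then reduce the peroxide, and glutathione supplies the electrons for the glutathione peroxidases. Glutamate-cysteine ligase, a pair of a catalytic and a modifier subunit, sets the rate of glutathione synthesis, and heme oxygenase 1 breaks down free heme. Transcription of many of these genes is known to be driven by NRF2 and repressed by BACH1, both of which bind DNA with small MAF proteins. In erythroid cells, GATA1 drives the maturation program.

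The libraries held 11364358 to 17289307 counts. Levels are given as CPM, the counts of a gene per 1000000 counts of its library. Human GATA1 averaged 653 ± 53.9 CPM in mutant libraries and 817 ± 103 CPM in wildtype libraries (SD, n = 3 each), so that the mutant had 79.8% of the wildtype level. The two-sided exact permutation p was 0.1, the smallest possible with 3 libraries a group. The empty vector libraries held 0, 2 and 0 counts of the human gene. Mouse Gata1 had reads in every library, at 48.0 to 49.7 CPM with the mutant, 44.6 to 51.0 CPM with the wildtype and 37.0 to 41.8 CPM with the empty vector. The source of these reads was not tested. All 10 erythroid progenitor markers were tested, among them Kit, Gata2, Epor and Tfrc. Their summed level was 2812 to 3093 CPM with the mutant, 3510 to 4009 CPM with the wildtype and 2857 to 3147 CPM with the empty vector. Single markers went both ways. At an adjusted p under 0.05 in edgeR, 4 of the 10 were higher and 3 lower with the wildtype than with the empty vector. Of all tested genes, 11.4% and 11.9% were. The late erythroid markers, 9 of 10 listed and with globins among them, summed to 1466 to 1605 CPM with the mutant, 17905 to 28849 CPM with the wildtype and 363 to 407 CPM with the empty vector. Mast cell markers summed to 76.7 to 84.3, 32.5 to 39.3 and 112 to 149 CPM in the mutant, wildtype and empty vector libraries, with Mcpt4, Mcpt8 and Tpsb2 at 0 in every library. Of the 5 tested, 1 was higher and 3 lower with the wildtype than with the empty vector, at the same threshold. Megakaryocyte markers summed to 139.6 to 149 CPM, 75.0 to 117 CPM and 181 to 230.2 CPM in the same order of groups, with Gp1bb and Vwf at 0. Granulocyte and monocyte markers summed to 8.24 to 9.99 CPM, 2.19 to 2.48 CPM and 9.22 to 11.4 CPM, with Elane, Ctsg, Ly6c2 and Itgam at 0. The part of these cell type differences in the results below was not tested, and in bulk RNA fewer cells of a type and less RNA per cell cannot be told apart.

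Counts per kilobase of exon let the 10 genes be set in order. On this scale (RPKM, CPM per kilobase of exon), Gpx1 was the highest in every group, at 1405 ± 113 with the mutant, 2655 ± 670.2 with the wildtype and 1147 ± 110.4 with the empty vector (SD, n = 3). Its rank lay between 6 and 23 among 9658 tested genes with a known exon length, depending on the library. With the wildtype it was followed by Prdx2 at 794 ± 172 RPKM, Gpx4 at 353 ± 108, Sod1 at 312 ± 67.0, Mgst3 at 140.4 ± 41.4 and Cat at 82.5 ± 5.88. Gpx4 was above Sod1 in each wildtype library, at 329, 470 and 258 RPKM against 316, 377 and 243 RPKM. The remaining 4 genes were lower, with Sod2 at 29.9 ± 2.23, Gclm at 13.7 ± 2.32, Hmox1 at 10.8 ± 1.51 and Gclc at 3.45 ± 0.716 RPKM. With the mutant and with the empty vector, Sod1 came directly after Gpx1, at 278 ± 34.1 and 279 ± 24.1 RPKM, ahead of Prdx2 at 223 ± 16.4 and 187 ± 23.0 RPKM. Gpx4 followed at 171 ± 20.3 RPKM with the mutant and at 158 ± 22.9 RPKM with the empty vector. It was below Prdx2 in each empty vector library, at 182, 137 and 155 RPKM against 211, 165 and 186 RPKM. Mgst3 stood at 35.8 ± 3.74 RPKM with the mutant and at 19.6 ± 2.19 RPKM with the empty vector, below Cat in both. Gclm and Hmox1 averaged 9.42 ± 1.22 and 8.84 ± 2.50 RPKM with the mutant, and 11.4 ± 2.48 and 12.6 ± 1.29 RPKM with the empty vector. Their order differed between the libraries of each of these groups. The lengths cover every annotated exon (1097 bases for Mgst3, 10008 for Sod2), so transcripts that use fewer exons are understated.

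**Figure D1:**
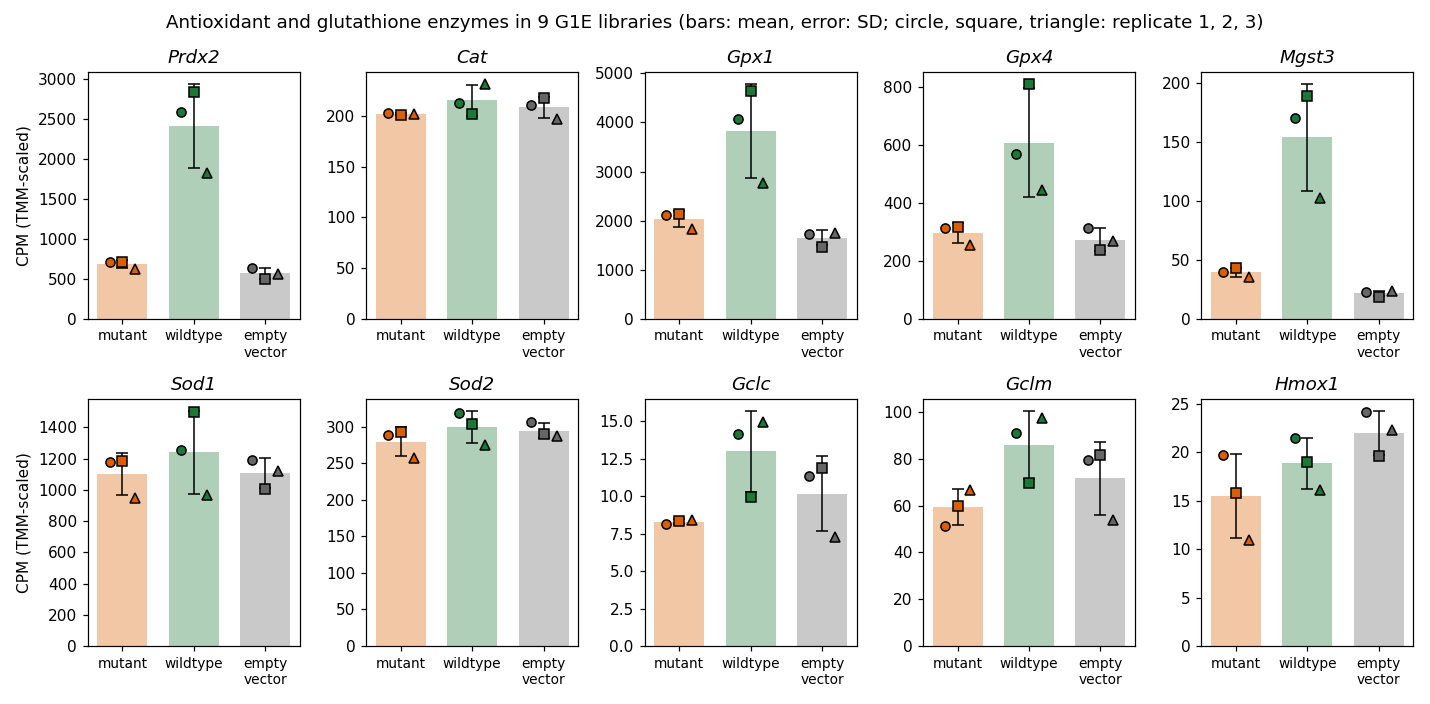
Levels of the 10 enzymes in each library, as CPM scaled by TMM factors (y axis, linear from 0), for mutant, wildtype and empty vector (x axis). Bars are group means, error bars SD over 3 libraries and symbols single libraries. Prdx2, Gpx1, Gpx4 and Mgst3 have all 3 wildtype libraries above all others, while Cat stays between 197 and 232 CPM in all 9.

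With wildtype GATA1, 4 of the 5 peroxide enzymes rose relative to the empty vector: Mgst3, Prdx2, Gpx1 and Gpx4. In edgeR's quasi-likelihood test 4 of the 10 were called (Benjamini-Hochberg adjusted p under 0.05), where 23.3% of all tested genes were. All 4 were higher, where 11.4% of all genes were, and 0 were lower, where 11.9% were. Over all genes the split was 1137 higher and 1186 lower, and 901 higher and 1500 lower with library totals in place of TMM factors, under which the members' counts were also 4 and 0. The 6 others included 0 with an unadjusted p under 0.05, and DESeq2 also called 0 lower. The median log2 fold change of the 10 was 0.31, against −0.04 over all tested genes. The groups did not overlap for 4 of the 10, where 32.6% of all genes did not (15.2% higher and 17.4% lower). Together the 10 genes took up 0.676% to 0.962% of all counts with the wildtype and 0.394% to 0.453% with the empty vector.

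Mgst3 had the largest rise. It encodes a microsomal glutathione S-transferase that also has glutathione-dependent peroxidase activity. It had 169.9, 189 and 103 CPM in the wildtype libraries, against 22.3, 18.9 and 23.5 CPM with the empty vector. Every wildtype library was over 4 times as high as any empty vector library. The change was 7.15-fold (log2 fold change 2.84 ± 0.21 SE, adjusted p 8.11e-07 in edgeR). The gene lies on chromosome 1, from 167371966 to 167393841 on the minus strand (GRCm38).

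Prdx2 (chromosome 8, 84969587 to 84974834, plus strand) encodes peroxiredoxin 2, a thiol peroxidase that is among the most abundant proteins of the red cell cytosol. It had 2595, 2839 and 1831 CPM in wildtype libraries, against 642, 502 and 566 CPM with the empty vector. The wildtype libraries were all higher, and replicate 3 was the lowest of them. The fold change was 4.25 (log2 2.09 ± 0.16 SE, adjusted p 1.6e-06 in edgeR). Its exons share 177 bases with Rnaseh2a and 173 with Junb on the opposite strand, of 3050 exonic bases. The library method does not keep strand, so reads within these shared bases cannot be assigned by strand.

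Gpx1 (chromosome 9, 108338903 to 108340343, plus strand), the main cytosolic glutathione peroxidase and a selenoprotein, had 4069, 4647 and 2762 CPM with the wildtype, against 1735, 1469.6 and 1754 CPM with the empty vector. It was 2.32-fold higher (log2 1.21 ± 0.17 SE, adjusted p 0.000218 in edgeR). Gpx4 (chromosome 10, 80047166 to 80056439, plus strand) is the selenoprotein that reduces lipid peroxides in membranes. It had 568, 811 and 444 CPM with the wildtype, against 315, 236 and 267 CPM with the empty vector, with no overlap, and was 2.23-fold higher (log2 1.16 ± 0.19 SE, adjusted p 0.000829 in edgeR). For both genes the 3 wildtype libraries were all higher and spread more widely than the empty vector libraries, with 1.83 times as much Gpx4 in the highest as in the lowest.

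Catalase was among the 6 genes that were not called. Cat (chromosome 2, 103453849 to 103485160, minus strand), the peroxisomal enzyme that splits hydrogen peroxide without glutathione, had 213, 202 and 232 CPM with the wildtype, against 211, 218 and 197 CPM with the empty vector. Its log2 fold change was 0.05, with a 95% interval from −0.17 to 0.27, and the libraries overlapped. Per length, the ratio of Cat to Prdx2 was 0.0829 to 0.148 in wildtype libraries and 0.383 to 0.507 in empty vector libraries. The superoxide dismutases also overlapped. Sod1, the cytosolic copper-zinc enzyme (chromosome 16, 90220754 to 90226329), ranged from 967 to 1498 CPM with the wildtype and from 1003 to 1193 CPM with the empty vector, at a log2 fold change of 0.17 (interval −0.18 to 0.51). Sod2, the mitochondrial manganese enzyme (chromosome 17, 13006846 to 13040063), ranged from 275 to 319 CPM with the wildtype and from 287 to 306 CPM with the empty vector, at 0.03 (−0.21 to 0.26).

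The glutathione-synthesis subunits and heme oxygenase gave no call against the empty vector either. Gclc, the catalytic subunit (chromosome 9, 77754535 to 77794485), had 14.1, 9.91 and 14.9 CPM with the wildtype, against 11.4, 11.9 and 7.27 CPM with the empty vector. Gclm, the modifier subunit (chromosome 3, 122245557 to 122270732), had 90.9, 69.5 and 97.3 CPM with the wildtype, against 79.7, 81.7 and 53.7 CPM with the empty vector. Both overlapped between these groups, at log2 fold changes of 0.36 (interval −0.10 to 0.82) and 0.26 (−0.12 to 0.65). Hmox1, the inducible heme oxygenase (chromosome 8, 75093621 to 75100589), had 21.4, 18.9 and 16.1 CPM with the wildtype, against 24.1, 19.6 and 22.3 CPM with the empty vector, at −0.22 (−0.66 to 0.22). The intervals of these 3 genes reach past a 1.5-fold change, and those of Cat, Sod1 and Sod2 do not.

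**Figure D2:**
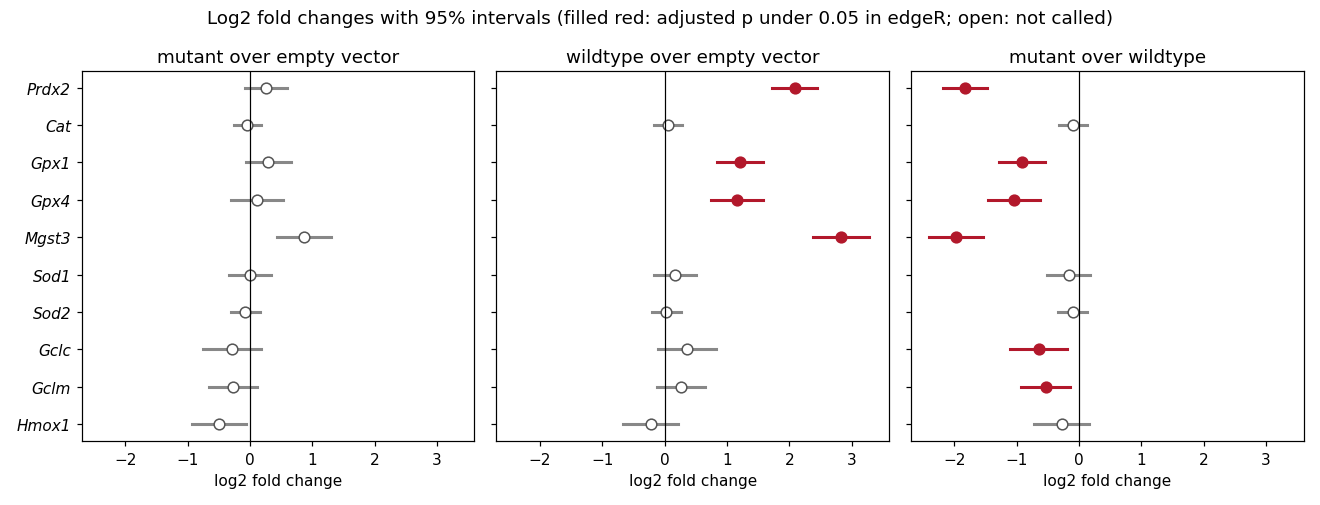
Log2 fold changes of the 10 enzymes (x axis) in each comparison, with 95% intervals from edgeR; filled red points passed an adjusted p of 0.05 over all genes. Against the empty vector, 4 points are filled with the wildtype and 0 with the mutant; 6 are filled for the mutant against the wildtype.

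The promoters of the 4 genes that rose with wildtype GATA1 are shown because these genes rose together. That of Gclm is shown as an example of a match to a motif of the pathway, which the window of Sod1, not shown, also holds. The windows run from 250 bases before to 50 bases after the annotated start (RefSeq, GRCm38.p6), and 8 of the 10 genes have one or more. Capitals mark matches, on either strand, to the GATA motif (an A or T, then GATA, then an A or G) in Gpx4 and to the antioxidant response element core (TGACNNNGC) in Gclm. The windows are chr1:167393792-167394091 (minus strand) for Mgst3, chr8:84969372-84969671 for Prdx2, chr9:108338830-108339129 for Gpx1, chr10:80053315-80053614 for 1 of the 4 starts of Gpx4, and chr3:122245307-122245606 for Gclm, all but Mgst3 on the plus strand.
Mgst3: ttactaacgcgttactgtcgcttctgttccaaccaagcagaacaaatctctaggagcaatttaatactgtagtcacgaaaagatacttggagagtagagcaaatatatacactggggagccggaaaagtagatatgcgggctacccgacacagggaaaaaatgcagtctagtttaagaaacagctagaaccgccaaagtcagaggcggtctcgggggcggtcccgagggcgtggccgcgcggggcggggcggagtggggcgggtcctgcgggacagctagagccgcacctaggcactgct
Prdx2: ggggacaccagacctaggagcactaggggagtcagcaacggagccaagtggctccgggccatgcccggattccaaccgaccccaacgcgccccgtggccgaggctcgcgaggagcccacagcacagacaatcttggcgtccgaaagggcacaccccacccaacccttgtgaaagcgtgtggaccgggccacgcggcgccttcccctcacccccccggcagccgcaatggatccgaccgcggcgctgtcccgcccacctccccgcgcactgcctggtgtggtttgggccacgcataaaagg
Gpx1: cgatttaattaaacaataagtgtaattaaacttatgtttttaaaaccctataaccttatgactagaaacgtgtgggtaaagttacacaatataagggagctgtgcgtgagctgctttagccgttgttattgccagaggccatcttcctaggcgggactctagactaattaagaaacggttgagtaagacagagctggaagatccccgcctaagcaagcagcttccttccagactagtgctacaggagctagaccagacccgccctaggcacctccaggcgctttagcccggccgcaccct
Gpx4: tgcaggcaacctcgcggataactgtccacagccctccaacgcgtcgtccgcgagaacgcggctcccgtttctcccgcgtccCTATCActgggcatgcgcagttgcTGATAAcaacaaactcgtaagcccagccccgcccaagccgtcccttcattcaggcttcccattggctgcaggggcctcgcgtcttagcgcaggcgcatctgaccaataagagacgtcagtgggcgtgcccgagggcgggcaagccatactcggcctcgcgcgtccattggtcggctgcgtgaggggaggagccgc
Gclm: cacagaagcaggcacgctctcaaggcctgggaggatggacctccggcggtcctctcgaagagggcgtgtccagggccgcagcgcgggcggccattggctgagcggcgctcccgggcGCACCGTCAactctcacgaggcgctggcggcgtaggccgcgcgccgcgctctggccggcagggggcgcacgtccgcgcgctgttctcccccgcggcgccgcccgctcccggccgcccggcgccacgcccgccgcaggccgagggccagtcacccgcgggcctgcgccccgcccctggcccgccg

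The windows of 3 of the 4 starts of Gpx4 held a GATA match. The window shown is that with the most matches, which stood from −169 to −164 and from −145 to −140 relative to the start. The window of the next start overlaps it and holds the second of these matches again, from −239 to −234. These letters were not in the windows of Prdx2, Gpx1 and Mgst3, nor in those of Cat, Sod1, Sod2 and Gclm. Of all 27025 genes with a window, 33.0% held a GATA match in at least 1, and a gene with several windows has more chances of one. The antioxidant response element core was found in Gclm, from −134 to −126, and in Sod1, from −56 to −48, where 3781 of all 27025 genes with a window held one. The windows of Gclm and Gpx1 differed in base composition, at 79.7% and 47.0% G and C, where the median window had 52.7%.

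With the mutant, none of the 10 genes was called against the empty vector. The edgeR test called 0 of the 10, where 0.271% of all tested genes were called, 0.21% as higher and 0.0601% as lower. An unadjusted p under 0.05 was reached by 2 of the 10, and DESeq2 called 1 higher. The median log2 fold change was −0.02, against −0.00 over all tested genes. The groups did not overlap for 2 of the 10, Mgst3 and Gpx1, and both were higher, where 15% of all genes did not overlap (8.11% higher and 6.88% lower).

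Mgst3 had 39.2, 43.4 and 35.2 CPM in mutant libraries, against 22.3, 18.9 and 23.5 CPM with the empty vector. All 3 mutant libraries were higher, at a 1.82-fold difference (log2 0.87 ± 0.20 SE, unadjusted p 0.000842) that had an adjusted p of 0.138 in edgeR. It was called in 6 of 20 alternative fits, with adjusted p-values from 0.000124 to 0.605. The 6 were DESeq2 (0.0106), no low-count filter (0.000124), the 6 libraries alone (0.0405), a ribosomal protein covariate (0.02), and leaving out wildtype replicate 3 (0.0116) or empty vector replicate 3 (0.0328). Over all genes the main fit called 21 higher and 6 lower. DESeq2 called 59 and 37, no low-count filter 119 and 296, and the fit without empty vector replicate 3 227 and 610. The 6 libraries alone gave 20 and 8, the covariate 22 and 9, and the fit without wildtype replicate 3 28 and 11.

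Gpx1 had 2112, 2125 and 1837 CPM in mutant libraries, against 1735, 1469.6 and 1754 CPM with the empty vector. The libraries did not overlap, but the log2 fold change of 0.29 ± 0.17 (SE) had an adjusted p of 0.459 in edgeR. Prdx2 had 706, 713 and 623 CPM in mutant libraries, against 642, 502 and 566 CPM with the empty vector. Gpx4 had 313, 318 and 255 CPM in mutant libraries, against 315, 236 and 267 CPM with the empty vector. Both overlapped, at log2 fold changes of 0.26 (interval −0.09 to 0.60) and 0.12 (−0.30 to 0.53). Hmox1 had 19.7, 15.8 and 11.0 CPM with the mutant, against 24.1, 19.6 and 22.3 CPM with the empty vector. The groups overlapped by a single library, at a log2 fold change of −0.50 ± 0.20 (SE, unadjusted p 0.0268, adjusted p 0.355 in edgeR). Cat, Sod1 and Sod2 had log2 fold changes of −0.04, −0.00 and −0.07, and Gclm and Gclc had −0.27 and −0.29.

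Set against the wildtype, the mutant left 6 of the 10 genes lower and 0 higher in edgeR, where 25.9% of all tested genes were called, 12.7% as lower and 13.2% as higher. Over all genes the split was 1267 lower and 1313 higher, and 918 lower and 1823 higher with library totals, under which 4 of the 10 were lower. DESeq2 also called 0 higher, and 0 of the 10 were higher at an unadjusted p under 0.05. The median log2 fold change was −0.59, against −0.01 over all tested genes. The groups did not overlap for 6 of the 10, and all 6 were lower, where 44.2% of all genes did not overlap (20.9% lower and 23.3% higher). This comparison shares its wildtype libraries with the wildtype response above.

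The same 4 peroxide enzymes were called lower, and stayed so under all 20 alternative fits. Mgst3 was 3.92-fold lower with the mutant (log2 −1.97 ± 0.20 SE, adjusted p 1.72e-05 in edgeR), averaging 39.3 ± 4.10 CPM with the mutant and 154 ± 45.4 CPM with the wildtype (SD, n = 3 each). Prdx2 was 3.56-fold lower (−1.83 ± 0.16, adjusted p 5.91e-06 in edgeR), at 681 ± 49.9 CPM with the mutant and 2422 ± 526 CPM with the wildtype. Gpx4 was 2.06-fold lower (−1.04 ± 0.19, adjusted p 0.00196 in edgeR), at 295 ± 34.9 CPM with the mutant and 608 ± 186 CPM with the wildtype. Gpx1 was 1.89-fold lower (−0.92 ± 0.17, adjusted p 0.00188 in edgeR), at 2025 ± 162 CPM with the mutant and 3826 ± 966 CPM with the wildtype.

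Both subunits of glutamate-cysteine ligase were also lower with the mutant, although neither form of GATA1 moved them past the threshold against the empty vector. Gclc had 8.13, 8.31 and 8.43 CPM with the mutant, against 14.1, 9.91 and 14.9 CPM with the wildtype. Gclm had 51.3, 60.0 and 66.6 CPM with the mutant, against 90.9, 69.5 and 97.3 CPM with the wildtype. Neither gene overlapped between these groups, and the empty vector libraries overlapped both. The log2 fold changes were −0.65 ± 0.21 for Gclc (adjusted p 0.0408 in edgeR) and −0.54 ± 0.18 for Gclm (adjusted p 0.0429). The calls of Gclc and Gclm were the least stable of the 6: 10 of 20 alternatives kept that of Gclc (adjusted p-values 0.00419 to 0.17) and 11 of 20 that of Gclm (0.000557 to 0.148). The lowest values, 0.00419 and 0.000557 in edgeR, came from a replicate block in the mutant and wildtype libraries alone. That fit was chosen after seeing the data, and the replicate numbers do not show that these libraries were paired. Over all genes it called 2323 higher and 2417 lower, against 1313 and 1267 in the main fit. Both calls were lost without mutant replicates 1 (0.106 for Gclc, 0.148 for Gclm) or 2 (0.104 for both), wildtype replicates 1 (0.114 and 0.111) or 3 (0.0935 and 0.0992), or empty vector replicate 2 (0.0507 and 0.0531). That of Gclc was also lost without mutant replicate 3 (0.081). Both were lost as well with the replicate block in all 9 libraries (0.0709 and 0.0778), library totals (0.0888 and 0.109), mutant replicates 1 and 2 summed (0.105 and 0.129), and without the library of each group lowest in ribosomal protein genes (0.17 and 0.109). Gclc rests on 103 to 177 counts per library. Per length, the ratio of Gclc to Gclm stayed between 0.212 and 0.265 in the mutant libraries, 0.238 and 0.260 in the wildtype libraries and 0.226 and 0.243 in the empty vector libraries.

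Within groups, 8 of the 10 genes had their extremes in the same libraries. Prdx2, Gpx1, Gpx4, Mgst3, Sod1 and Hmox1 were each lowest in mutant replicate 3, wildtype replicate 3 and empty vector replicate 2. Gclm and Gclc were highest in those same 3 libraries. The summed level of 75 ribosomal protein genes was also lowest there, at 58398 CPM in mutant replicate 3 and 69989.6 to 70499 CPM in the other mutant libraries. It was 63782 CPM in wildtype replicate 3, 79289.5 and 102371 CPM in wildtype replicates 1 and 2, 58029 CPM in empty vector replicate 2, and 66018 and 70515 CPM in the other empty vector libraries. The late erythroid markers were lowest in the same 3 libraries as well. The ribosomal protein level was highest in wildtype replicates 1 and 2, so it is partly confounded with group. The fits that follow cannot separate its part in these results from that of the group, and that part was not tested. No fit included the late erythroid level, which also differed between the groups, and its part was not tested. The differences of wildtype from empty vector remained called with the ribosomal protein level as a covariate, with log2 fold changes of 2.44 for Mgst3, 1.79 for Prdx2, 0.87 for Gpx1 and 0.73 for Gpx4. Without those 3 libraries they were 2.99, 2.19, 1.34 and 1.27. Against the wildtype, the mutant gave −0.65 for Gpx4 and −0.61 for Gpx1 with the covariate, in place of −1.04 and −0.92 without it.

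**Figure D3:**
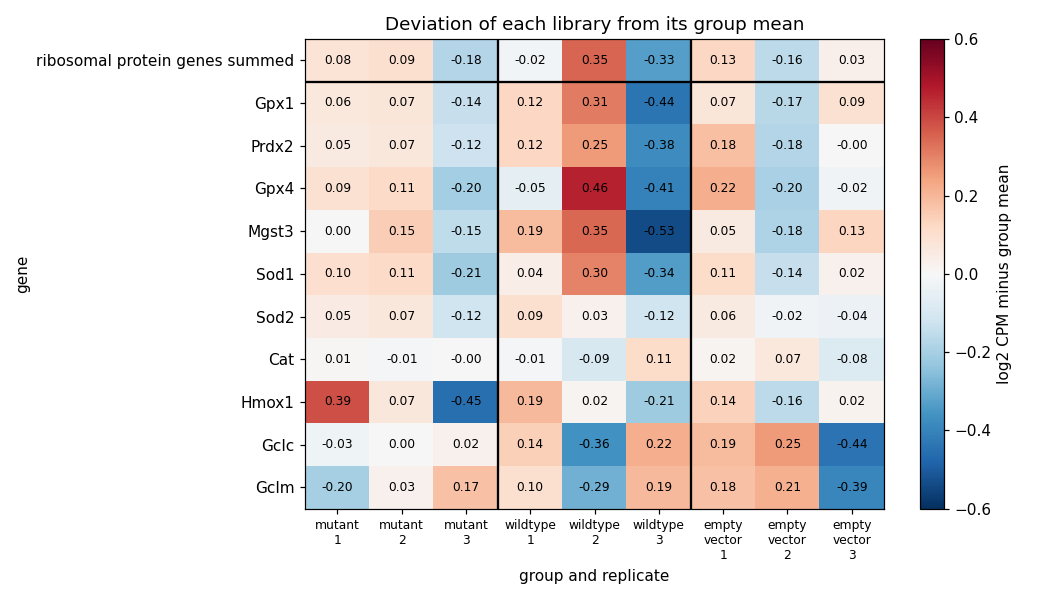
Log2 CPM of each gene minus its group mean (colour and printed value) in the 9 libraries (columns), with the summed ribosomal protein genes in the top row. Mutant replicate 3, wildtype replicate 3 and empty vector replicate 2 are low in the top row and in Gpx1, Prdx2, Gpx4, Mgst3, Sod1 and Hmox1, and high in Gclc and Gclm.

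The surrounding pathway was described by 11 lists with 92 further genes, of which 91 were in the table and 60 were tested. With the wildtype, 12 of the 60 were higher and 8 lower than with the empty vector, where 11.4% and 11.9% of all tested genes were (20% and 13.3% of the 60). The balance depended on the scaling, with 9 higher and 13 lower under library totals. Their median log2 fold change was 0.02, against −0.04 over all tested genes. The counts were 6 higher and 5 lower without empty vector replicate 2, and 7 higher without wildtype replicate 1. With the mutant, edgeR called 0 of the 60 higher and 0 lower than with the empty vector, 9 had an unadjusted p under 0.05, and DESeq2 called 1 higher. Without empty vector replicate 3, 3 were lower. Against the wildtype, the mutant had 11 of the 60 higher and 13 lower (18.3% and 21.7%), where 13.2% and 12.7% of all tested genes were, with a median of −0.04 against −0.01 over all tested genes. With library totals these counts were 16 and 13. The count of higher genes was 4, 5 and 6 without mutant replicate 1, mutant replicate 2 and wildtype replicate 1, and that of lower genes was 7 without wildtype replicate 1. With the replicate block in only the 6 mutant and wildtype libraries, 17 were higher. Of the 20 calls for the wildtype against the empty vector, 10 held in every alternative run: those of Blvrb, Gstt1, Glrx5, Txnrd2, Mafk, Slc3a2, Nnt, Me1, Idh1 and Idh2. The other 10 were each lost in at least 1, and 9 of them (all but Txn2) were lost without empty vector replicate 2, at adjusted p-values of 0.0658 to 0.165 in edgeR. Without wildtype replicate 1 the calls of Prdx3, Txnip, Gss, Ggct, Gstt2, Blvra and Bach1 were lost (0.0551 to 0.0937), and without wildtype replicate 2 those of Prdx3, Ccs, Gss, Gsr, Gstt2 and Blvra (0.0558 to 0.183). Of the 24 calls for the mutant against the wildtype, 8 held in every alternative, and leaving out mutant replicate 1, mutant replicate 2 or wildtype replicate 1 lost 10, 10 and 11, at adjusted p-values of up to 0.2 in edgeR.

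Beside the counts of single lists that follow stand the shares of all tested genes called for the wildtype against the empty vector, 11.4% higher and 11.9% lower. The lists are short, and no list's count was tested against other genes. Of 3 heme breakdown genes other than Hmox1, 2 rose with the wildtype. Blvrb, biliverdin reductase B, which is also the flavin reductase of red cells, had 1536, 1785 and 1026 CPM with the wildtype, against 437, 359.8 and 442 CPM with the empty vector. All wildtype libraries were over 2 times as high (log2 1.81 ± 0.19 SE, adjusted p 1.68e-05 in edgeR). With the mutant it had 552, 559 and 439.9 CPM, and was lower than with the wildtype (−1.49 ± 0.19, adjusted p 9.82e-05 in edgeR). Blvra was the other gene that rose (0.54 ± 0.15), and Hmox2 was not called (−0.17 ± 0.12).

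Of 9 tested thioredoxin system genes, 2 rose with the wildtype and 1 fell, where 11.4% and 11.9% of all tested genes did. Txnrd2, the mitochondrial thioredoxin reductase and a selenoprotein, had 164, 149 and 118 CPM with the wildtype, against 66.4, 70.6 and 80.0 CPM with the empty vector (log2 0.99 ± 0.15). Txn2, the mitochondrial thioredoxin, rose by 0.53 ± 0.13, and Txnip, a thioredoxin-binding protein, fell by 0.60 on the log2 scale. Of the 5 other peroxiredoxins, 1 rose, the mitochondrial Prdx3 (0.36 ± 0.11), a call that held in 8 of 20 alternatives. The copper chaperone of Sod1, Ccs, rose by 0.63 ± 0.16, while Sod1 itself was not called.

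Of 12 tested genes of glutathione synthesis, recycling and turnover, 2 rose with the wildtype and 3 fell, against the same 11.4% and 11.9% over all tested genes. Glrx5, a mitochondrial glutaredoxin of iron-sulfur cluster assembly, had 310.2, 325 and 231 CPM with the wildtype, against 142, 122 and 135 CPM with the empty vector (log2 1.12 ± 0.14). Gss, glutathione synthetase, rose by 0.53 ± 0.15. Slc3a2, a subunit of the cystine importer and of other amino acid transporters, fell by 0.75, Ggct by 0.56 and Gsr, glutathione reductase, by 0.54 on the log2 scale. The call of Gsr held in 9 of 20 alternatives. Chac2, an enzyme that degrades glutathione, was lower with the mutant than with the wildtype (−1.11 ± 0.26), with 9.71, 8.07 and 10.5 CPM with the mutant, against 16.9, 21.1 and 22.9 CPM with the wildtype. That call was lost without the 3 libraries lowest in ribosomal protein genes (adjusted p 0.056 in edgeR). The empty vector libraries had 22.9, 15.2 and 9.78 CPM of Chac2 and overlapped both groups. Neither form of GATA1 moved Chac2 past the threshold against the empty vector.

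Of 6 tested sources of NADPH, which regenerates reduced glutathione and thioredoxin, 4 fell with the wildtype, where 11.9% of all tested genes did. Nnt, the mitochondrial transhydrogenase, had 30.7, 27.3 and 30.0 CPM with the wildtype, against 56.2, 62.0 and 65.0 CPM with the empty vector (log2 −1.06 ± 0.12). Me1, cytosolic malic enzyme, had 4.16, 4.62 and 5.88 CPM with the wildtype, against 12.6, 10.1 and 11.1 CPM with the empty vector (−1.20 ± 0.19). Idh1 fell by 0.81 and Idh2 by 0.59 on the log2 scale. G6pdx (−0.16 ± 0.13) and Pgd (−0.34 ± 0.12) were not called. All 4 genes that fell were higher with the mutant than with the wildtype, with Nnt at 61.9, 60.3 and 64.6 CPM in the mutant libraries (1.09 ± 0.12) and Me1 at 7.51, 9.03 and 8.04 CPM (0.75 ± 0.19). The call of Me1 was lost without mutant replicate 2 or wildtype replicate 1 (adjusted p up to 0.0654 in edgeR). That of Idh2 was lost without mutant replicate 1, and that of Idh1 held in 9 of 20 alternatives.

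Among 7 tested NRF2 and BACH regulators, Mafk and Bach1 rose with the wildtype and the others were not called. Mafk, a small MAF protein that pairs with NFE2, NRF2 or BACH1, had 103, 109.8 and 101 CPM with the wildtype, against 50.4, 52.2 and 55.1 CPM with the empty vector (log2 0.99 ± 0.11). Bach1 rose by 0.76 ± 0.24 at 5.63 ± 1.58 CPM with the wildtype, against 3.33 ± 0.171 CPM with the empty vector (SD, n = 3 each), a call that held in 8 of 19 alternatives. Nfe2l2, which encodes NRF2, was not called (0.11 ± 0.13), nor were Keap1 (−0.10 ± 0.12) and the NRF2 target Nqo1 (0.37 ± 0.18). Of the 7 genes of selenoprotein synthesis, edgeR and DESeq2 each called 0 for the wildtype against the empty vector, with 2 at an unadjusted p under 0.05.

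Other glutathione enzymes were mostly low. Gpx2, Gpx3, Gpx5, Gpx6, Gpx7 and Gpx8 had at most 4 counts in any library and were not tested, with 3 of the 6 at 0 in all libraries. Of 24 glutathione S-transferases listed, 8 were tested and 2 rose with the wildtype, Gstt1 and Gstt2, where 11.4% of all tested genes did. Gstt1, named here after its values were seen, had 119, 83 and 74 counts with the wildtype, against 10, 9 and 3 counts with the empty vector (log2 3.95 ± 0.36 SE, adjusted p 5.77e-06 in edgeR). With the mutant it had 8, 5 and 10 counts. Gstt1 and Gstt2 are related in sequence, and the sources used here do not say how reads that match several genes were counted.

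**Figure D4:**
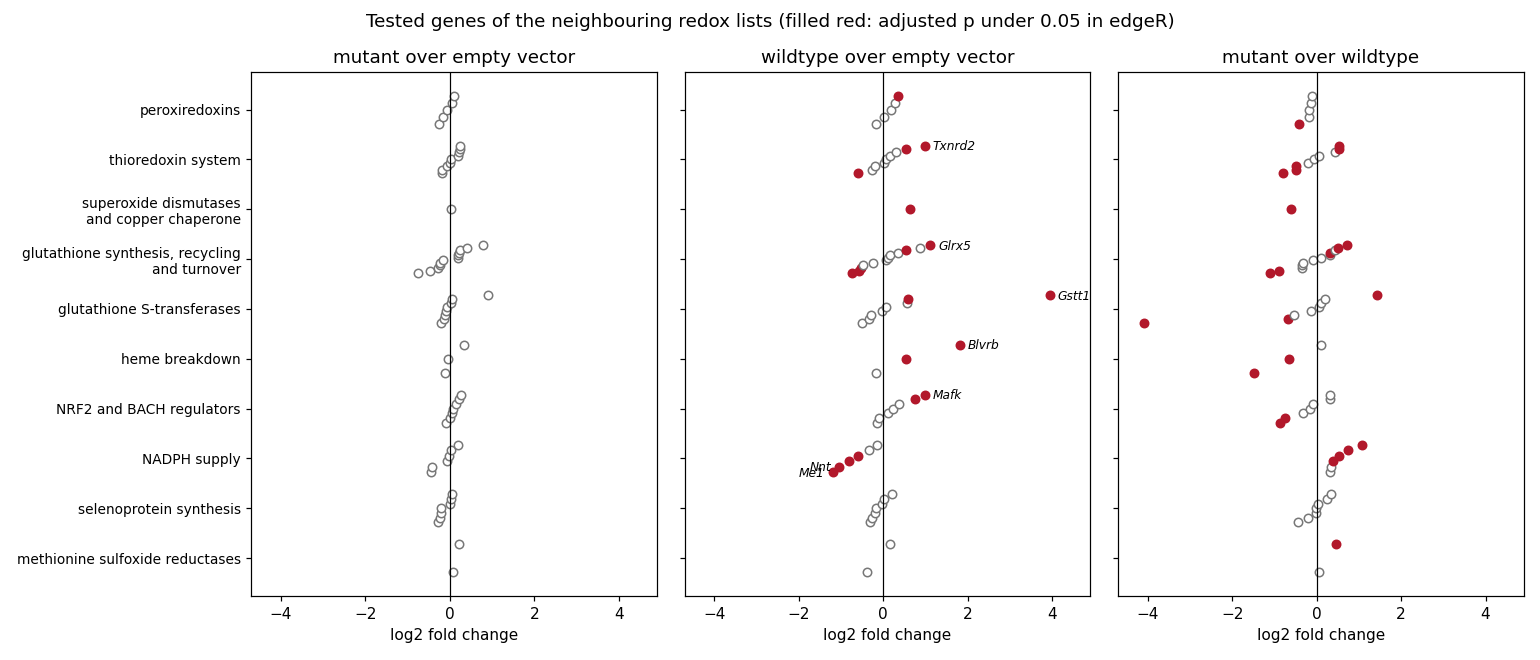
Log2 fold changes (x axis) of the 60 tested genes of the pathway lists (y axis; the list of other glutathione peroxidases had no tested gene) in each comparison, with filled red points for calls in edgeR. With the wildtype 12 points are filled on the right and 8 on the left, with the mutant 0 are filled, and in the mutant over wildtype panel the NADPH supply genes lie on the right and Blvrb on the left.

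The genes whose levels followed Mgst3 most closely over the 9 libraries were Tst (Pearson r 0.994 of log2 CPM), Hba-a1 (0.994), Alad (0.993), Hbq1b (0.991) and Hbb-y (0.990), among 8108 genes with at least 5 CPM on average. An r over 0.9 was reached by 467 of these genes, so the pattern is a common one in these libraries. For Hmox1, which had the lowest log2 fold change of the 10 with the wildtype, the closest were Jmjd6 (0.960), Slc2a1 (0.931), Qdpr (0.823), Zfp7 (0.821) and Ppp1r35 (0.806), and only Jmjd6 and Slc2a1 passed 0.9.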

How the data were processed

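RNA was measured in 9 libraries, 3 each with a GATA1 mutant, wildtype GATA1 and an empty vector; groups and replicate numbers come from the sample titles. Per the labels' protocols, libraries came from Smart-seq2 with Nextera-based indexing; that method copies whole transcripts and does not keep strand. The authors deposited raw counts of reads per gene; reads were aligned with STAR against GRCm38.p4 and hg19, per the submitters' processing notes. The counting tool, its annotation and its handling of multimapping reads are not stated there. Totals ranged from 11364358 to 17289307 counts, and 12975 of 27999 rows had no count.

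Tests on the counts of mouse genes used edgeR 4.0.16 (R 4.3.3) with its quasi-likelihood pipeline (TMM factors, filterByExpr, glmQLFit and glmQLFTest, 1 mean per group in all 9 libraries, 6 residual degrees of freedom), with Benjamini-Hochberg adjustment over 9978 genes within each comparison and calls at an adjusted p under 0.05. A standard error is the size of the log2 fold change divided by the root of its F-statistic, and the 95% intervals follow from it. CPM values rest on TMM-scaled totals (plain totals for human GATA1), and log2 CPM on a prior count of 2. Exon lengths and coordinates are those of GENCODE M21 (GRCm38), promoters those of RefSeq. The code was tested on simulated data. The series calls the replicates biological but does not say what separates them, so the p-values reflect the spread among these 9 libraries, which may be technical.

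Mutant replicates 1 and 2 differed by more than sampling noise (chi-square per degree of freedom 2.25) but by less than other pairs (15.4 to 57.3), and were kept as 2 libraries. Deviations from the group means of same-numbered mutant and wildtype libraries correlated at 0.260, 0.372 and 0.626 across 9344 genes. Mutant 1 with wildtype 2 and mutant 2 with wildtype 1 also correlated, at 0.308 and 0.303. Mutant 3 correlated negatively with wildtype 1 and 2 (−0.381 and −0.460). The numbers therefore do not show that these groups were paired. With the empty vector the same-numbered correlations were negative (−0.294 to −0.518), while wildtype 3 with empty vector 2 reached 0.517. No pairing was used in the main fit.

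Alternatives were RLE factors, library totals, 2 other filters, DESeq2 1.42.0, the replicate block, the 6 libraries alone, mutant replicates 1 and 2 summed and each library left out. A block within the 6 libraries, a ribosomal protein covariate, and leaving out the library of each group lowest in ribosomal protein genes were chosen after seeing the data. The members, the pathway lists and their tests were chosen with earlier results of these data known. The rule named all 10 members, the 6 called pathway genes with the largest change per comparison at a mean of at least 5 CPM, and the 5 genes closest in pattern to the members with the largest positive and the lowest log2 fold change with the wildtype; other genes named were picked from the lists after their values were seen.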

Additional observations from a re-analysis of the deposited data

How the results depend on the processing

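Of 200 values of single members per comparison over 20 alternatives, none gained or lost a call for the wildtype against the empty vector. For the mutant against the wildtype, 19 lost their call (Gclc and Gclm), and for the mutant against the empty vector 6 gained one (Mgst3). No called value changed sign. Among values not called, the sign of the log2 fold change turned in 5 for the wildtype against the empty vector, 3 for the mutant against the wildtype and 11 for the mutant against the empty vector, all of them of Cat, Sod1 or Sod2, so no direction is read for these genes. The count of members higher with the mutant than with the empty vector was 1 with no low-count filter, DESeq2, the 6 libraries alone and the ribosomal protein covariate, and 0 to 1 with single libraries left out. Members lower with the mutant than with the wildtype numbered 4 to 6 with single libraries left out 4 with the replicate block in all 9 libraries, with library totals and with mutant replicates 1 and 2 summed, and 4 without the library of each group lowest in ribosomal protein genes. With the block in only the mutant and wildtype libraries, they numbered 6.

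Over all genes, the mutant against the empty vector gave 21 higher and 6 lower. It gave 119 and 296 with no low-count filter, 59 and 37 with DESeq2, 12 and 2 with the replicate block, 9 and 2 with mutant replicates 1 and 2 summed, 3 lower with library totals, 8 and 1 without the 3 libraries lowest in ribosomal protein genes, and 5 to 227 higher and 2 to 610 lower with single libraries left out, the highest counts without empty vector replicate 3. The wildtype against the empty vector gave 1137 higher and 1186 lower, 723 and 709 with the block in 6 libraries, and 732 to 1614 and 655 to 1641 with single libraries left out. The mutant against the wildtype gave 1313 higher and 1267 lower, 779 and 772 with mutant replicates 1 and 2 summed, 2323 and 2417 with the block in 6 libraries, 837 higher without the 3 libraries, and 693 to 1581 and 778 to 1577 with single libraries left out.

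Among pathway genes, the mutant against the empty vector gave 1 higher with DESeq2, 1 lower with no low-count filter and 0 to 3 lower with single libraries left out. The wildtype against the empty vector gave 9 higher and 13 lower with library totals, 6 higher and 5 lower with the block in 6 libraries, and 6 to 13 higher and 5 to 10 lower with single libraries left out. The mutant against the wildtype gave 6 higher with replicates summed, 17 higher with the block in 6 libraries, 7 higher without the 3 libraries, and 4 to 14 higher and 7 to 16 lower with single libraries left out. The cause of these shifts was not tested. Human GATA1 in the mutant was 75.1% to 85.2% of the wildtype level with single libraries left out. With library totals in place of TMM factors, the median of all genes was −0.13 for the wildtype against the empty vector and 0.10 for the mutant against the wildtype. Counts of 103 to 177 limit Gclc.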
